A study of Mus musculus with 9 samples.

Results

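Filaggrin and the other fused-type S100 proteins of the skin barrier are encoded by 7 genes, Flg, Flg2, Hrnr, Rptn, Tchh, Tchhl1 and Crnn. They were picked by gene name from the 34637 genes with an FPKM value, which is a read count scaled for gene length and library depth, and joined by gene identifier to the table of read counts of 55401 genes. All 7 were found, and all 7 were among the 20817 genes that passed the filter on low counts. The genes were chosen with their difference between the groups known, so that difference is given as a description, without a p.

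The libraries came from the back skin of male C57BL/6 mice, 6 to 8 weeks old, with a dermatitis raised by dinitrochlorobenzene (DNCB), a small reactive molecule that provokes contact allergy and is used as a model of atopic dermatitis. The back was shaved on day 0 and sensitized with 200 μL of 1% DNCB on day 1, and 100 μL of 0.5% DNCB was painted on it again and again between day 4 and day 21. The FJDHF group (n = 5) was fed Fangji Dihuang formulation, a herbal preparation, every day after day 7 up to day 28, and the Model group (n = 4) was given the same amount of water. By the study's account, the sequenced FJDHF skin came from its medium-dose group and not from its high-dose group. Both groups carried the DNCB dermatitis, and skin without DNCB was not analysed here.

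The columns of the tables carry codes in place of sample names. The 5 columns whose code starts with MR were taken as the FJDHF group and the 4 that start with MXL as the Model group, since the labels list 5 and 4 mice for them and the Chinese word for model begins with the initials MX. Every direction below rests on that assignment. Codes such as MR3_4 and MXL12 may stand for pooled mice, which the sources do not state, so n counts libraries, and the spread between them may be partly technical.

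The fused-type S100 proteins join a calcium-binding S100 domain at the start of the chain to a long run of repeats. Profilaggrin, the product of Flg, is stored in the keratohyalin granules of the granular layer, and on cornification it is cut into filaggrin units that bundle keratin filaments and are later broken down to the free amino acids that hold water in the horny layer. Trichohyalin, the product of Tchh, plays a like part in the inner root sheath and medulla of the hair follicle. Loss of filaggrin weakens the barrier and is the best known inherited risk for atopic dermatitis in people.

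The 7 genes lay side by side on mouse chromosome 3, all on the plus strand, in the order Crnn, Flg2, Flg, Hrnr, Rptn, Tchh and Tchhl1. They spanned chr3:93144787-93471980 of GRCm38, a stretch of 327194 bases inside the epidermal differentiation complex. Each gene's start and end in the deposited table were the same as in GENCODE M21. The stretch before the start of each gene is shown because the genes are neighbours whose levels varied in different ways between these libraries. The sequences are the last 120 bases before the RefSeq start in GRCm38.p6, written 5′ to 3′ on the gene's strand. The capitals mark TGANTCA, a palindrome that resembles the site of AP-1 type factors, and TATAAA, a core promoter word. In every TGANTCA marked here N is A or T, and whether AP-1 type factors bind these words was not tested.
Flg: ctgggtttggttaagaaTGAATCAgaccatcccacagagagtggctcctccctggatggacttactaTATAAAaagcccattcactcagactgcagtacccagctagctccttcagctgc
Flg2: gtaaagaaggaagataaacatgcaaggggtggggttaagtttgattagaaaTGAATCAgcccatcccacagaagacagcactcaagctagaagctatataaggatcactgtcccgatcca
Hrnr: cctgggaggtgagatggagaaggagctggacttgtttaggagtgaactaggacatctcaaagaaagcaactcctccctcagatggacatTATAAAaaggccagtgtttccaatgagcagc
Rptn: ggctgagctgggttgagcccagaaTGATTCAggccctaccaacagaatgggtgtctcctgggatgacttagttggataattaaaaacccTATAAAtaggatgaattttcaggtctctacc
Tchhl1: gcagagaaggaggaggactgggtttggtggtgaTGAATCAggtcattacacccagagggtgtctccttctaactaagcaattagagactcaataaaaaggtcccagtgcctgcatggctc
Crnn: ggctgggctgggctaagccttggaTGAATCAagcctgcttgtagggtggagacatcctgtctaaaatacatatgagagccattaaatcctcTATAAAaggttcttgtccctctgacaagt
Tchh: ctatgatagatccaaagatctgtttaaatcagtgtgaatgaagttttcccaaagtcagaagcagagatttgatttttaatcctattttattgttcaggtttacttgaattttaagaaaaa
The windows lie at chr3:93273426-93273545 for Flg, chr3:93197153-93197272 for Flg2, chr3:93319629-93319748 for Hrnr, chr3:93393579-93393698 for Rptn, chr3:93468634-93468753 for Tchhl1, chr3:93144669-93144788 for Crnn and chr3:93442210-93442329 for Tchh, all upstream of the first exon of RefSeq. The motifs were chosen after the sequences had been read. In the 250 bases before the start, TGANTCA, which reads the same on both strands, was found in 5 of the 7 genes and in 6.75% of 32851 RefSeq promoters, and TATAAA on the gene's strand in 4 of the 7 and in 7.59% of the promoters. Flg, Rptn and Crnn held both words, as did 0.791% of the promoters. The word TATAAA of Hrnr and that of Rptn each began 31 bases before the start, and that of Flg began 53 bases before the RefSeq start and 30 bases before the GENCODE start, which lies 23 bases further upstream. CCCACC, the core of the box bound by Klf4, was found on the opposite strand in Flg2, Hrnr and Crnn and, on either strand, in 28.6% of the promoters. None of the 3 words was found before the annotated start of Tchh. Its longest transcript has 2 exons, against 3 in Flg, Flg2, Hrnr, Rptn and Tchhl1 and 4 in Crnn. Whether transcription of Tchh begins at the annotated start was not tested, so its window may not be comparable to the others. The longest run of letters shared by any pair of the 7 windows of 250 bases was 12 bases, CCATCCCACAGA, in Flg and Flg2. A word match is a description of these letters and not evidence of binding.

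Total counts per library lay between 74648669 and 79474215. No pair of the 9 libraries was a duplicate, and the lowest count of any of the 7 genes in any library was 3463, for Tchhl1 in MR5, so counting error was small beside the spread between libraries. Markers of keratinocytes, hair follicle and fibroblasts were detected in every library. The skeletal muscle score, the mean log2(CPM + 0.5) of 8 of 8 listed genes, ran from 5.56 to 10.8 in the Model libraries and from 7.15 to 9.87 in the FJDHF libraries, and the neutrophil score over 7 of 7 genes stood at 4.78 in MXL12 against 1.71 to 2.69 in the other 8. Libraries also differed in the levels of GC-rich transcripts. Whether this came from RNA recovery or from cell composition was not tested. Subtracting it, as done below, may therefore also remove differences in cell composition. For the 2412 genes of at least 56% GC, the median deviation from each gene's median over the libraries, on the log2 scale, was 0.62 in MXL1 and 0.47 in MR3 but −0.78 in MXL12, −0.79 in MR5 and −0.38 in MXL3_4. Both groups held libraries at both ends, and values with this GC trend subtracted, an alternative added after the data were seen, are given beside those as measured for the fold changes of the 7 genes and for the likeness between them.

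Levels were compared between genes per length, as FPKM. Tchh was the highest of the 7 in 7 of the 9 libraries, and Rptn was the highest in MR1 and MR5. Tchh had a mean of 442 ± 187 FPKM (SD, n = 4) for Model and 439 ± 303 FPKM (SD, n = 5) for FJDHF, whereas Flg2, the lowest or next to lowest in every library, had 13.9 ± 6.96 and 18.2 ± 12.0 FPKM. Flg stood at 12.9 ± 5.14 FPKM in the Model group, within the spread of Flg2. In all 4 Model libraries Crnn ranked 2, behind Tchh, and Hrnr ranked below Tchhl1, while Rptn moved between rank 3 and rank 5. Their Model means were 121 FPKM for Crnn, 70.2 for Tchhl1, 69.7 for Rptn and 38.0 for Hrnr, and the ranges of neighbours in that order overlapped between libraries. Together the 7 genes took 0.225% of all counts in MXL_3 and 0.787% in MR4_5, the lowest and the highest share, and Tchh alone gave 18.2% of these counts in MR1 and 69.1% in MXL3_4.

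The levels per length may also depend on the base composition and the repeats of the transcripts. The longest Flg transcript has 63.6% GC, that of Flg2 55.9%, of Tchh 55.3%, of Crnn 49.1%, of Hrnr 48.3%, of Tchhl1 46.8% and of Rptn 46.7%. Among genes with at least 1 CPM, the median level was 33.0 CPM for the 2414 genes of 40 to 44% GC and 6.41 CPM for the 429 genes of 60 to 64% GC. Unlike FPKM, CPM is not scaled for length, and the part of gene length in this difference was not tested. Of all windows of 150 bases, the read length, 62.4% of those in the Flg transcript, 66.2% in Hrnr and 46.2% in Flg2 occur more than once within the same transcript, against 0.211% in Tchh and 0% in Rptn, Tchhl1 and Crnn. No window was shared between members, so reads would not be moved from one member to another, but how the authors counted reads that match several places in 1 gene is not given in the sources used here. The part of base composition and repeats in the low FPKM of Flg and Flg2 was not tested.

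Between the groups, edgeR called 0 of the 20817 genes at an adjusted p under 0.05 with a 2-fold change (0%), and the smallest adjusted p in edgeR's quasi-likelihood test was 1.00. With DESeq2 2 genes were called (0.00967%), none of them among the 7. At an unadjusted p under 0.05, edgeR's quasi-likelihood test listed 326 genes (1.57%), 3 of them members, namely Flg, Hrnr and Rptn. These 3 are the contrast by which the genes were chosen, so nothing is read from that count. The median log2 fold change of the 7 was 0.39, with 4 higher and 3 lower in the FJDHF group, and the median over all tested genes was −0.03, with 44.1% of genes higher. No member had groups that did not overlap, as 107 of the tested genes did (0.514%), 48 of them with higher FJDHF libraries (0.231%). None of the cell type markers was called, and the ranges of the groups overlapped for every marker score. In the FJDHF group 6 of 7 tested hair shaft markers and 5 of 6 inner root sheath markers were higher. Their median log2 fold changes were 0.54 and 0.14. Of the 8 skeletal muscle markers 6 were lower, with a median of −0.22. The activated keratinocyte markers had 3 higher and 3 lower, with a median of −0.25. All 7 fibroblast markers and all 7 neutrophil markers had a lower value in the FJDHF group, with median log2 fold changes of −0.42 and −1.18, and the neutrophil score of the FJDHF libraries, 2.05 to 2.63, lay inside the 1.71 to 2.69 of the Model libraries other than MXL12. The fibroblast score ran from 10.4 to 11.2 in the Model libraries and from 10.04 to 10.9 in the FJDHF libraries. Of these markers, Ly6g alone was at 0 in a library. The part of cell composition in the values of the 7 genes was not tested.

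**Figure D1:**
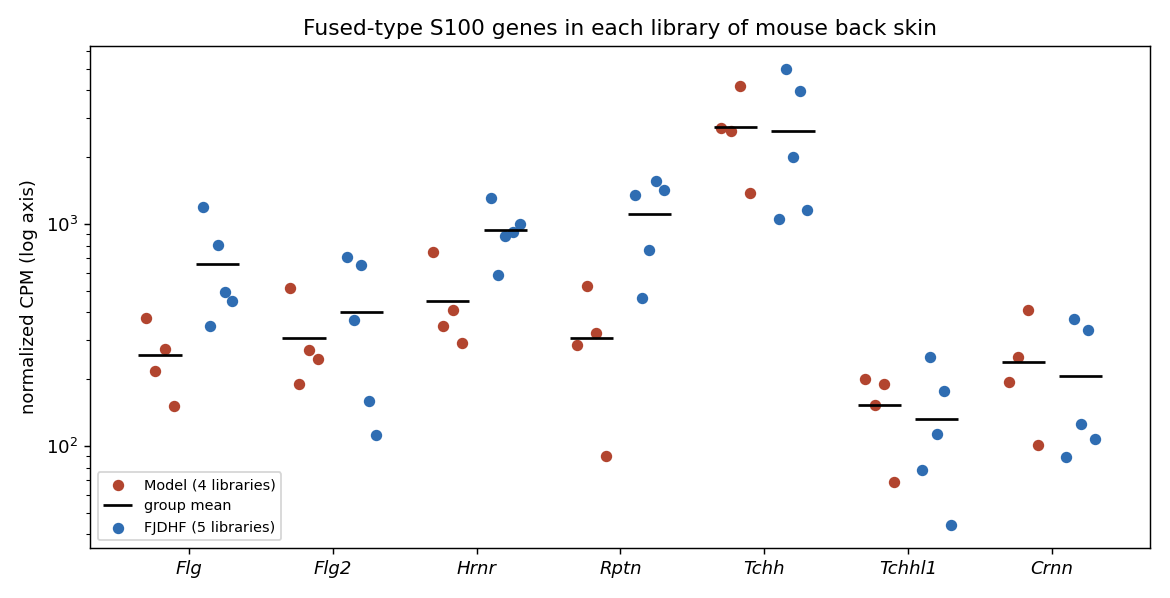
Normalized CPM of each gene in each library on a log axis, with 4 Model libraries (red) and 5 FJDHF libraries (blue) per gene and a black line at each group mean. The FJDHF libraries of Flg, Hrnr and Rptn lie above the Model libraries except for 1 FJDHF library each, MR3, those of Flg2, Tchh and Tchhl1 span the Model range, and for Crnn the highest of the 9 libraries is the Model library MXL3_4.

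Flg, the filaggrin gene itself (ENSMUSG00000102439, chr3:93273523-93293686), stood at 378, 219, 274 and 152 normalized CPM in the Model libraries MXL1, MXL12, MXL3_4 and MXL_3. In the FJDHF libraries MR1, MR3, MR3_4, MR4_5 and MR5 it stood at 1197, 346, 803, 495 and 449 CPM. MR3 was the single FJDHF library below the highest Model library, MXL1, and the FJDHF libraries spread over 3.46-fold, from MR3 to MR1. The means were 256 ± 95.5 CPM (SD, n = 4) for Model and 658 ± 346 CPM (SD, n = 5) for FJDHF, a ratio of 2.57, and the log2 fold change was 1.36 (SE 0.40). It lay between 1.02 without MR1 and 1.61 without MXL1, and it was 1.28 with the GC trend of each library in the fit. With that trend subtracted, the Model libraries ran from 152 to 381 CPM and the FJDHF libraries from 238 to 1087 CPM. The spread of the FJDHF libraries was then 4.57-fold, and the groups still overlapped.

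Hrnr encodes hornerin, a profilaggrin-like repeat protein of the cornified envelope (ENSMUSG00000041991, chr3:93319749-93333570). Its levels were 745, 345, 411 and 289.7 CPM in MXL1, MXL12, MXL3_4 and MXL_3. In MR1, MR3, MR3_4, MR4_5 and MR5 they were 1303, 589, 883, 919 and 999.8 CPM. As for Flg, MXL1 was the highest Model library and MR3 the lowest FJDHF library, and these were the libraries by which the groups overlapped. The means were 448 ± 204 CPM (SD, n = 4) and 939 ± 256 CPM (SD, n = 5), a ratio of 2.10, with a log2 fold change of 1.07 (SE 0.31), between 0.91 without MXL_3 and 1.43 without MXL1. With 48.3% GC, Hrnr was moved little by the GC trend, to 1.03.

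Flg2 encodes filaggrin-2, whose repeats are partly of the filaggrin and partly of the hornerin type (ENSMUSG00000049133, chr3:93197278-93221391). It stood at 516, 190.2, 272 and 246 CPM in the Model libraries, in the order given for Flg, and at 707, 369, 652, 160.1 and 112 CPM in the FJDHF libraries. MR1 and MR3_4 were above all Model libraries while MR4_5 and MR5 were below all of them, so the FJDHF range of 6.30-fold enclosed the whole Model range of 2.71-fold. The means were 306 ± 144 CPM (SD, n = 4) and 400.0 ± 273 CPM (SD, n = 5), and the log2 fold change was 0.39 (SE 0.54), less than its standard error. It was 0.065 without MR1 and 0.76 without MXL1. Subtracting the GC trend narrowed the spread among the Model libraries to 1.68-fold and among the FJDHF libraries to 4.17-fold, and the log2 fold change was then 0.30.

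Rptn encodes repetin, a protein of the cornified envelope made in the upper epidermis (ENSMUSG00000041984, chr3:93393699-93399442). It gave 284, 525, 322 and 90.3 CPM in MXL1, MXL12, MXL3_4 and MXL_3, and 1357, 463, 763, 1564 and 1416 CPM in MR1, MR3, MR3_4, MR4_5 and MR5. All FJDHF libraries but MR3 were above the highest Model library, MXL12, and MXL_3 was the lowest of the 9. The means were 305 ± 178 CPM (SD, n = 4) and 1113 ± 474 CPM (SD, n = 5), a ratio of 3.64. The log2 fold change of 1.87 (SE 0.50) was the largest of the 7, at percentile 99.8 of all tested genes, and it lay between 1.56 without MXL_3 and 2.26 without MXL12. With the GC trend subtracted, the groups of Rptn no longer overlapped, but only narrowly. The highest Model library then stood at 474 CPM and the lowest FJDHF library at 485 CPM. Groups without overlap and with higher FJDHF libraries were then found in 0.269% of the tested genes. The log2 fold change of Rptn with the GC trend in the fit was 1.91. An exon of a predicted gene, Gm37857, overlaps Rptn on the same strand, and it had at most 84 counts in a library.

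The level of Rptn moved against skeletal muscle RNA within both groups. Among the Model libraries Rptn was lowest in MXL_3, where the skeletal muscle score was 10.8, and highest in MXL12, where it was 5.56. Among the FJDHF libraries it was lowest in MR3 and MR3_4, with scores of 9.86 and 9.87, and highest in MR4_5, with 7.15. After subtracting group means, Rptn and the score correlated at r = −0.93 (rho −0.97, n = 9), and r ranged from −0.95 to −0.87 on leaving out each library and was −0.92 with the GC trend subtracted. For the other 6 genes r with the muscle score lay between −0.34 and 0.49, and between −0.50 and 0.29 with the GC trend subtracted. With the muscle score as covariate the log2 fold change of Rptn was 2.19 and that of Flg2 was 0.14. In bulk skin, fewer cells of a type and less RNA per cell cannot be told apart, and what the muscle content has to do with Rptn was not tested.

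Tchh, the trichohyalin gene (ENSMUSG00000052415, chr3:93442330-93449077), gave 2709, 2623, 4205 and 1377 CPM in MXL1, MXL12, MXL3_4 and MXL_3. It gave 1050.5, 5005, 2006, 3957 and 1162 CPM in MR1, MR3, MR3_4, MR4_5 and MR5. The FJDHF libraries held both the highest and the lowest value of all 9, and the means were 2728 ± 1157 CPM (SD, n = 4) and 2636 ± 1764 CPM (SD, n = 5). The log2 fold change of −0.05 (SE 0.50) turned to 0.24 without MXL3_4 and to −0.43 without MR3, and it was −0.27 with the GC trend in the fit.

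Tchhl1, trichohyalin-like 1 (ENSMUSG00000027908, chr3:93468754-93471980), gave 199.8, 154, 191 and 68.6 CPM in the Model libraries and 77.7, 252, 113, 176 and 44.1 CPM in the FJDHF libraries, in the same order. Crnn, which encodes cornulin of the upper squamous layers (ENSMUSG00000078657, chr3:93144787-93149819), gave 194, 252, 409.7 and 101 CPM and 88.9, 374, 126, 334 and 108 CPM. In both genes MXL_3 was the lowest Model library, MR3 the highest FJDHF library and MR1 and MR5 the lowest FJDHF libraries, as for Tchh. The log2 fold change was −0.21 (SE 0.48) for Tchhl1 and −0.21 (SE 0.51) for Crnn. Each depended on single libraries, being −0.60 without MR3 and 0.014 without MR5 for Tchhl1, and −0.56 without MR3 and 0.18 without MXL3_4 for Crnn. With the GC trend in the fit they were −0.18 and −0.21.

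**Figure D2:**
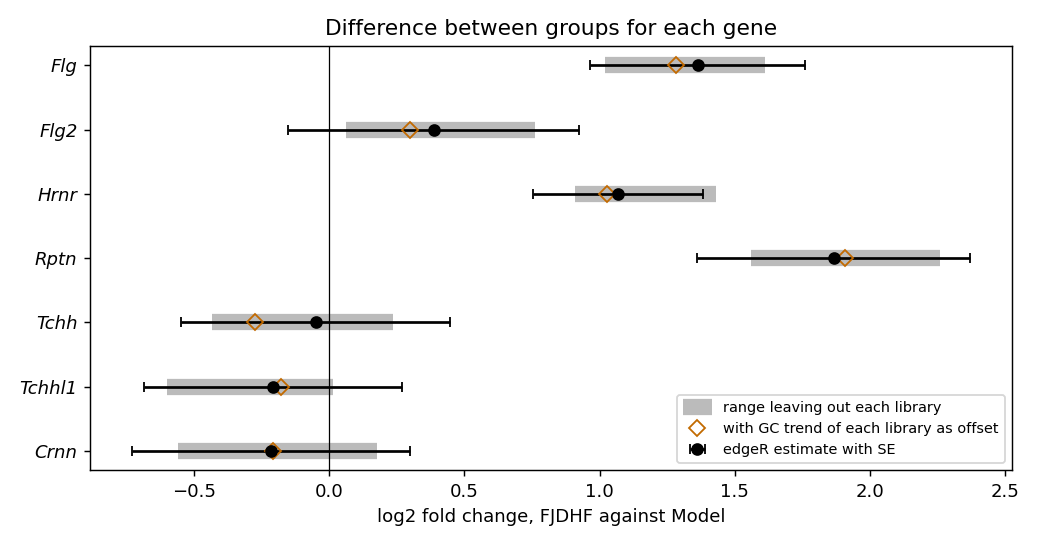
Log2 fold change of each gene, FJDHF against Model, with its standard error (black), the range on leaving out each of the 9 libraries (grey bar) and the value with the GC trend of each library in the fit (open diamond). Flg, Hrnr and Rptn stay above 0.90 on leaving out any library, and the grey bars of Tchh, Tchhl1 and Crnn cross 0.

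How the genes varied between libraries of the same group does not follow from the contrast by which they were chosen. It was described by Pearson's r of log2(CPM + 0.5) after each group's mean was subtracted, over 9 libraries, for 21 pairs of genes. The genes fell into a pair of sets that were named after the values were seen. Tchh and Crnn had r = 0.97 (rho 0.93, and 0.96 to 0.98 on leaving out each library), Tchh and Tchhl1 r = 0.93 (rho 0.93) and Tchhl1 and Crnn r = 0.86 (rho 0.90). Without the libraries farthest from the median, MR1 and MR3, r was 0.95 for Tchh and Crnn and 0.94 for Tchh and Tchhl1. Among 15714 other genes with at least 1 CPM, Crnn ranked 9 and Tchhl1 ranked 52 in likeness to Tchh. Between these 3 genes and Flg, Flg2, Hrnr and Rptn, the 12 values of r lay between −0.30 and 0.26, and between −0.42 and 0.18 with the GC trend subtracted. That subtraction took Tchh and Tchhl1 from 0.93 to 0.74, and left Tchhl1 and Crnn at 0.83 and Tchh and Crnn at 0.97.

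**Figure D3:**
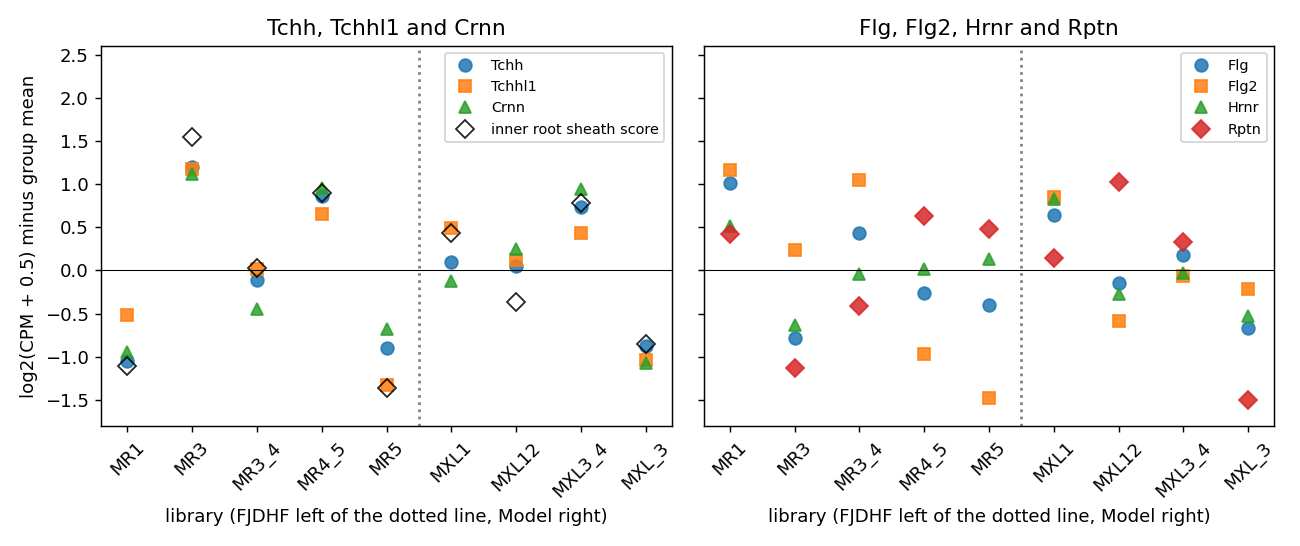
Log2(CPM + 0.5) minus the group mean in each of the 9 libraries, for Tchh, Tchhl1 and Crnn with the inner root sheath marker score (left) and for Flg, Flg2, Hrnr and Rptn (right). The 3 genes on the left lie close together in each library and follow the score, which is highest in MR3, and the 4 on the right spread apart, most in MR5, MR4_5 and MXL12.

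The inner root sheath is the layer of the hair follicle in which trichohyalin granules form, and its keratins Krt71, Krt72, Krt73, Krt25, Krt27 and Krt28 served as markers. All 6 were detected in every library, and their score ran from 7.42 to 9.05 in the Model libraries and from 6.77 to 9.68 in the FJDHF libraries. The group-centred score correlated with Tchh at r = 0.97 (rho 0.97), with Tchhl1 at r = 0.95 (rho 0.95) and with Crnn at r = 0.89 (rho 0.88), over 9 libraries. With Flg, Hrnr, Rptn and Flg2 it had r of −0.20, −0.22, −0.16 and 0.13. The hair shaft score, from keratins of the cortex and cuticle, had r of 0.85 with Tchh, 0.91 with Tchhl1 and 0.74 with Crnn. Subtracting the GC trend left r with the inner root sheath score at 0.94 for Tchh, 0.89 for Tchhl1 and 0.97 for Crnn. The 5 genes most like Tchh were Krt72 (r = 0.99), a keratin of the inner root sheath, Elf5 and Krt82 (both 0.98), and Nolc1 and Gm14703 (both 0.97), and Krt82 is a keratin of the hair cuticle.

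**Figure D4:**
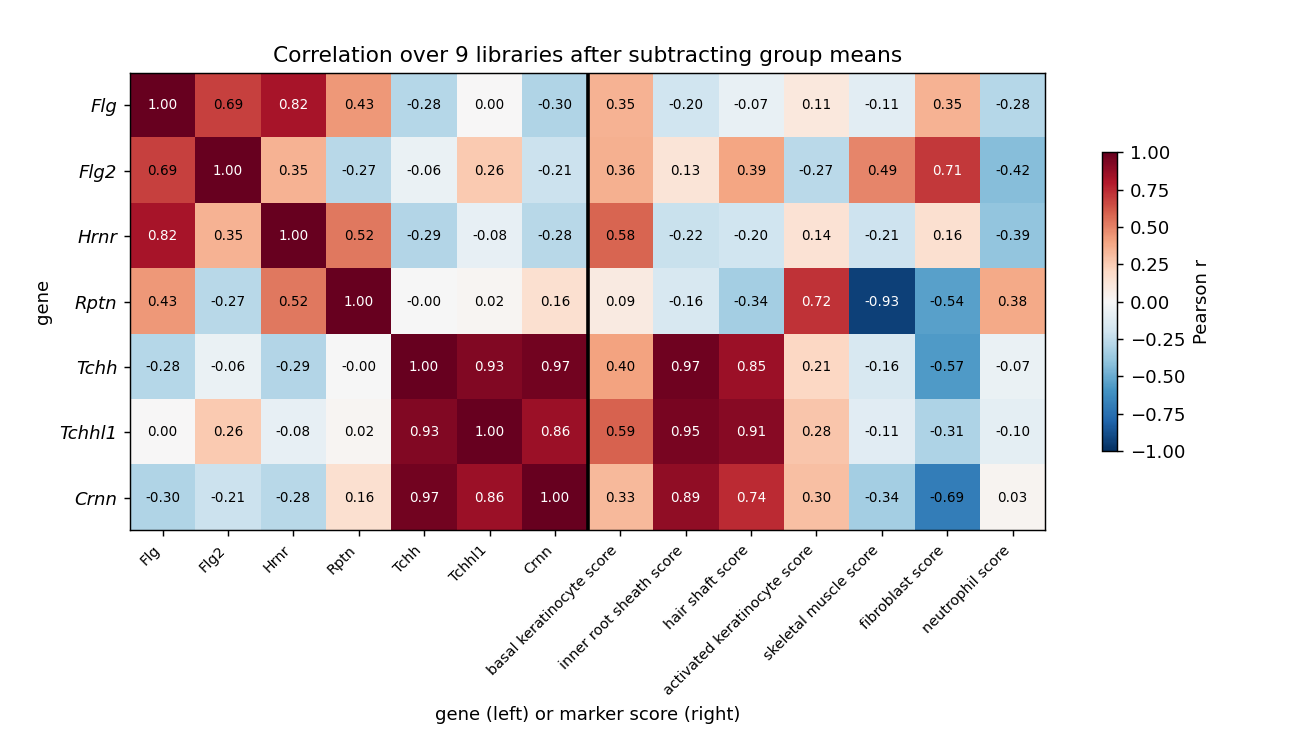
Pearson r over 9 libraries after subtracting group means, between the 7 genes (left of the line) and between each gene and 7 marker scores (right), with red for positive and blue for negative r. Tchh, Tchhl1 and Crnn form a block of r from 0.86 to 0.97 that extends to the inner root sheath and hair shaft scores, and Rptn has r = −0.93 with the skeletal muscle score.

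Flg, Hrnr, Flg2 and Rptn were less alike. Flg and Hrnr had r = 0.82 (rho 0.70, and 0.75 to 0.89 on leaving out each library), and 0.67 without MR1 and MXL1. Flg and Flg2 had r = 0.69 (rho 0.63), and 0.40 without the same libraries. Hrnr and Rptn had r = 0.52, Flg and Rptn 0.43 and Flg2 and Hrnr 0.35, and Flg2 and Rptn had r = −0.27. With the GC trend of each library subtracted, r was 0.41 for Flg and Hrnr, 0.35 for Flg and Flg2, 0.71 for Flg and Rptn and −0.060 for Flg2 and Rptn, while Hrnr and Rptn stood at 0.53 and Flg2 and Hrnr at 0.38, close to the values as measured.

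**Figure D5:**
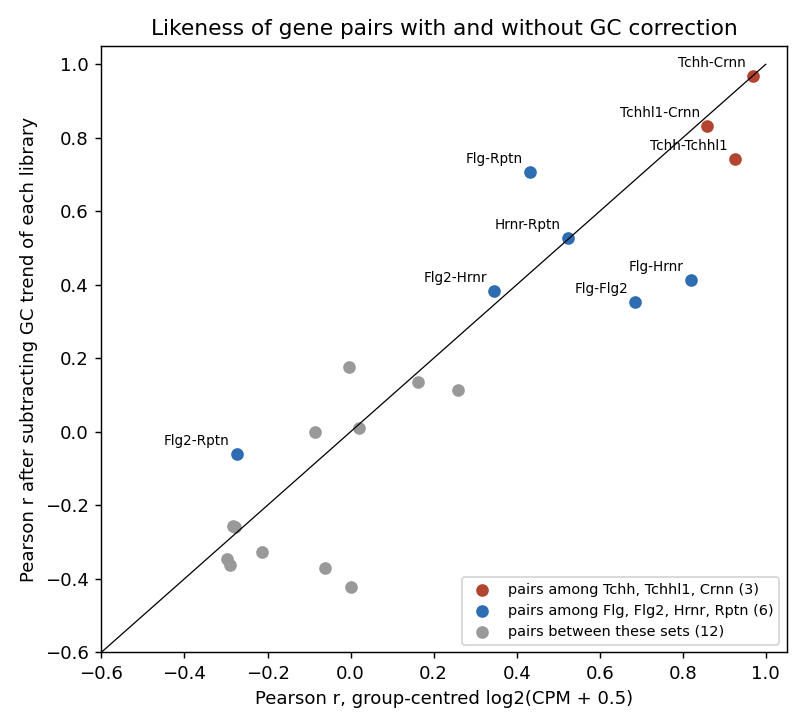
Pearson r of each of the 21 gene pairs as measured (horizontal axis) and after subtracting the GC trend of each library (vertical axis), with the diagonal marking equal values. Flg-Hrnr drops from 0.82 to 0.41, Flg-Flg2 from 0.69 to 0.35 and Tchh-Tchhl1 from 0.93 to 0.74, Flg-Rptn climbs from 0.43 to 0.71, and Tchh-Crnn remains at 0.97.

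The 10 genes most like Flg were Kctd4 (r = 0.97), Il18, Skint10 and Nt5c3 (0.96 each), Megf6 (0.96), Psme2b and Lce6a (0.95 each), Itgae (0.94), and Serpinb7 and Skint11 (0.93 each). Il18 encodes an interleukin stored in keratinocytes, Lce6a a late cornified envelope protein, and Itgae the integrin chain CD103 of skin T cells. Their r was measured over 9 libraries, and with the GC trend subtracted 0 of the 10 stayed among the 10 nearest, Megf6 (60.1% GC) being the closest of them at rank 43 with r = 0.91 and Kctd4 (37.9% GC) having r = 0.22. Of the 5 genes named for Tchh, 3 stayed among the 5 nearest.

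Genes of profilaggrin processing and filaggrin breakdown, mostly enzymes but also the inhibitor Spink5, were read from a list of 16 genes, all of them tested. None was called, and 13 were higher and 3 lower in the FJDHF group, where 44.1% of all tested genes were higher. The list's median log2 fold change of 0.32 lay between 0.099 without MXL_3 and 0.80 without MXL1, and it was 0.11 without MR3. Casp14, the caspase that cuts filaggrin for breakdown, was named for its small unadjusted p and not for its level. It ran from 126 to 282 CPM in the Model libraries and from 358 to 622 CPM in the FJDHF libraries, without overlap. Groups without overlap and with higher FJDHF libraries were found in 0.231% of the tested genes. The log2 fold change of Casp14 was 1.42 (SE 0.25). Klk5, a serine protease of the horny layer, had 0.97 (SE 0.38), and Asprv1, the retroviral-like protease that processes profilaggrin, 0.88 (SE 0.42). Klk7 had 0.65 (SE 0.33), and Spink5, an inhibitor of these kallikreins, 0.37 (SE 0.31).

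Of 16 other cornified envelope and keratin genes 15 were tested, and none was called, with 9 higher, 6 lower and a median log2 fold change of 0.44, which lay between 0.21 without MXL_3 and 1.06 without MXL1. Krt1 and Krt10 encode the keratin pair of the suprabasal layers that filaggrin bundles. Krt1 had a mean of 1711 ± 800 CPM (SD, n = 4) for Model and 4787 ± 2280 CPM (SD, n = 5) for FJDHF, a log2 fold change of 1.48 (SE 0.41), and Krt10 had 1.23 (SE 0.39), both with overlapping groups. Ppl, for the plakin periplakin, had 0.21 (SE 0.32). Krt77, named after its value was seen, went the other way at −2.10 (SE 0.77). The basal keratinocyte markers, 8 of 8 tested, had a median log2 fold change of 0.03 with 5 higher and 3 lower.

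Transcription factors of keratinocyte differentiation were read from a list of 20 genes, 19 of them tested, and none was called. Their median log2 fold change was 0.11, with 14 higher and 5 lower, and it lay between 0.0013 without MXL_3 and 0.31 without MXL1. Klf4, a factor of the barrier-forming layers, had 0.62 (SE 0.20), while Maf had 0.11 (SE 0.22) and Trp63, the factor of the basal layer, −0.00079 (SE 0.30). Cytokines and receptors known to lower filaggrin in keratinocytes formed a list of 13 genes, of which 10 were tested and none was called. Of the tested genes 5 were higher and 5 lower, with a median of −0.09 that turned to 0.17 without MXL12. The untested genes were the ligands Il13, Il22 and Il17a, with means of 0.034, 0.012 and 0.092 CPM. The median does not cover them. The receptor chains Il13ra1, Osmr and Il4ra had −0.18 (SE 0.29), −0.20 (SE 0.27) and 0.040 (SE 0.28). Osm had −1.69 (SE 0.96) and Tnf −0.76 (SE 0.70), and without MXL12, the library with the high neutrophil score, they turned to 0.54 and 0.40.

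Around the 7 genes, the deposited table lists 10 other genes between Crnn and Tchhl1, of which 5 passed the filter on low counts, among them the pseudogene Rplp0-ps1, which lies inside the span of Flg and had at most 66 counts. Within 2000 kb of the start of Flg, 97 other genes were tested. Of these 66 (68%) were higher in the FJDHF group, against 44.1% of all tested genes, with a median log2 fold change of 0.17. The tested neighbours include the Lce and Sprr gene families, all on the Crnn side of the 7 genes. Some, such as Lor, Ivl and Kprp, were also in the list of other cornified envelope genes. Neighbouring genes are not independent of each other, so this share is not a separate result.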

How the data were processed

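RNA-seq of back skin was measured in 4 Model and 5 FJDHF samples. The libraries were poly(A)-selected and strand-specific, and were sequenced from both ends. The authors deposited whole-number read counts per gene, without normalization, and FPKM values. 9 further columns of per-library values in the second table were not used. The submitters' processing notes name HISAT, StringTie, DESeq2 and the build mm10, without versions, and the annotation release and the use of strand in counting are not given in the sources used here.

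Counts were filtered with filterByExpr, scaled by TMM and tested by the quasi-likelihood test of edgeR 4.0.16 (R 4.3.3), without a covariate and with Benjamini-Hochberg adjustment over 20817 genes. Calls needed a 2-fold change and an adjusted p under 0.05, after the study's methods. Normalized CPM are counts scaled to the TMM-adjusted library size. A count of 3, taken as the floor, is 0.0377 to 0.0402 CPM, for counting error only. The steps were tested on simulated data.

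Marker scores are means of log2(CPM + 0.5) over a list. For the GC alternative, the median deviation of genes of like GC content, in 50 bins of the longest GENCODE M21 transcript, was subtracted from each library, and 99.9% of the tested genes had a GC value. Alternatives were DESeq2 1.42.0 and its size factors, limma 3.58.1 on log2(FPKM + 1), other filters on low counts, marker scores as covariates, a replicate block and leaving out each library. The genes and lists were chosen with earlier results of these data known. From each list the 3 genes with the highest level and the 2 with the smallest unadjusted p were named, with the 10 genes most like Flg and the 5 most like Tchh. A gene that this rule named is not reported here. Figures were drawn with matplotlib 3.10.9 in Python 3.11.15.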

Additional observations from a re-analysis of the deposited data

How the results depend on the processing

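The number of genes called was 0 in edgeR's fit and under every other alternative except DESeq2's Wald test, which called 2, and it was 0 on leaving out each library in turn. The median log2 fold change of the 7 genes was 0.39 and lay between 0.14 without MR3_4 and 0.76 without MXL1, and the median r over the 21 pairs was 0.021 and lay between −0.30 without MXL_3 and 0.34 without MR3. Flg, Hrnr and Rptn kept a positive log2 fold change under all alternatives run, between 0.91 and 2.26 for any of the 3. The number of genes with an unadjusted p under 0.05 and a 2-fold change, 189 in edgeR's fit, was 46 with limma on log2(FPKM + 1), 772 without a filter, 124 with at least 10 counts in every library, 431 without MXL1 and 305 without MXL_3. Of the recomputed values of these main results 54 stayed within their limit, and 1, the DESeq2 count, did not. The limit was 1.5 times for the count and the spread between replicates for the median log2 fold change. That spread was wider than the median of 0.39 itself, so even a median of 0 would have stayed within it. Nothing is therefore read from the tally for the median log2 fold change. For the median r it was a standard error made from the leave-one-out values themselves. Such values can rarely lie outside it, so nothing is read from the tally for r.

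The numbers in the column codes are shared by 3 pairs of libraries. Their deviations from the group means correlated at 0.22, 0.12 and −0.22, and 1 of 3 libraries correlated best with its own number. From 3 pairs it cannot be told whether a shared number stands for any other link between libraries. With that replicate block, over 6 libraries, the log2 fold change was 1.47 for Flg, 0.76 for Flg2, 0.98 for Hrnr, 1.95 for Rptn, −0.28 for Tchh, −0.15 for Tchhl1 and −0.41 for Crnn, the median was 0.76 and 0 genes were called. Without the block the median over the same libraries was 0.74.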

Other observations

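Some genes of high GC content stood at low levels in these libraries. Lor, which encodes loricrin, a main protein of the cornified envelope, has 68.3% GC in its longest transcript and a mean of 19.6 CPM over the 9 libraries, with 13.8 ± 9.38 CPM (SD, n = 4) for Model and 24.2 ± 13.4 CPM (SD, n = 5) for FJDHF. Flg, of 63.6% GC, had 479 CPM over the same libraries, and Krt10, of 53.7% GC, had 3136 CPM. Of the transcription factors, Cebpb, with 67.2% GC, had 0.642 CPM and Junb, with 62.6% GC, had 0.700 CPM, while Cebpa, also with 62.6% GC, had 104 CPM and Jun, with 55.5% GC, had 36.2 CPM. These genes were picked after their values were seen.

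The fibroblast score moved with Flg2 and against Crnn within the groups, at r = 0.71 and r = −0.69 over 9 libraries after subtracting group means, and at 0.56 and −0.85 with the GC trend of each library subtracted. Its r with Tchh was −0.57 as measured and −0.90 with that trend subtracted. The activated keratinocyte score, from Krt6a, Krt6b, Krt16, Krt17, S100a8 and S100a9, had r = 0.72 with Rptn, and between 0.60 and 0.82 on leaving out each library.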
